A study of Homo sapiens with 11 samples.

Results

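The 9 genes described here are the Notch ligands DLL1, JAG1 and JAG2, the receptors NOTCH1, NOTCH2 and NOTCH3, the coactivator MAML2 and the target genes HES1 and HEY1. They were taken by symbol, and each matched 1 of the 40460 genes in the table. The list was chosen with earlier results of these data known. The shares of its genes past a threshold are therefore not those of a list chosen blind to the data. RNA was sequenced from hTert-HME1, a line of human mammary epithelial cells made immortal with telomerase, after siRNA transfection and growth with or without EGF (epidermal growth factor), a mitogen of its medium. The libraries were 3 with the BRCA2-1 siRNA without EGF (replicates A, B and C), 2 with the control-2 siRNA without EGF (A and C), 3 with the BRCA2-1 siRNA with EGF and 3 with the control-2 siRNA with EGF (A, B and C in both). All 11 libraries came from cells at passage 6 of a single line. Each label stood for 1 siRNA sequence, so off-target effects of the BRCA2-1 siRNA cannot be told apart from any effect through BRCA2. The BRCA2 values, which showed no decrease under this label, are given below. The time without EGF is not given in the sources used here.

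Notch receptors are membrane proteins that bind ligands on neighbouring cells. Binding leads to cleavage by ADAM proteases and gamma-secretase, and the freed intracellular part joins the DNA-binding protein RBPJ and a Mastermind coactivator to switch on target genes, among them repressors of the HES and HEY families. In the mammary gland the pathway is known for its part in the choice between basal and luminal fates, and in the epidermis for its part in keratinocyte differentiation.

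Values were deposited as log2 numbers without counts, and library depth is unknown. Whether values were scaled by transcript length is not given in the sources used here, and levels are therefore compared between libraries and not between genes. The siRNA target, BRCA2, showed no decrease under its own siRNA label. Without EGF it had log2 values of 12.48, 12.27 and 12.11 in those libraries, against 11.44 and 11.65 with control siRNA, and with EGF 12.43, 12.37 and 12.40 against 12.45, 12.13 and 12.48. The libraries are therefore named by their labels, and directions between siRNAs are directions between labels. Basal markers of mammary epithelium were present, with KRT5 between 17.21 and 18.78 and TP63 between 13.01 and 14.04. Of the luminal markers, EPCAM, KRT19 and ELF5 did not exceed 1.72 in any library, while KRT18 lay between 10.94 and 11.98. In a principal component analysis of all tested genes the first component held 65.9% of the variance and separated the 5 libraries without EGF from the 6 with EGF, of which both replicate C libraries lay nearest to those without EGF.

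EGF withdrawal (without EGF against with EGF) was accompanied by higher DLL1, JAG2, NOTCH1 and NOTCH3 under either siRNA label. With control siRNA, NOTCH3 was 9.07-fold and DLL1 7.26-fold higher without EGF. In the libraries labelled BRCA2 siRNA the corresponding folds were 2.62 for NOTCH3 and 4.71 for DLL1. HEY1 fell with control siRNA, and HES1 fell in the libraries labelled BRCA2 siRNA. JAG1, NOTCH2 and MAML2 did not pass the threshold (adjusted p below 0.05, limma with Benjamini-Hochberg adjustment over 17945 tested genes) under either label.

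Of the 9 genes, 4 rose and 1 fell in the libraries labelled BRCA2 siRNA, beside a background of 27.1% of all tested genes past the threshold (13.4% higher and 13.8% lower). With control siRNA 4 also rose and 1 fell, beside a background of 50.8% (24.7% higher and 26.1% lower). The share of 5 in 9 is close to that background with control siRNA. The median log2 difference of the 9 genes was 0.23 for the BRCA2 label and 0.17 for control siRNA, and that of all tested genes was 0.0032 and -0.0036. With replicates B and C alone, a fit with 1 control library without EGF that is assumed to vary like the other groups, the calls of JAG2, NOTCH1, NOTCH3 and HES1 for the BRCA2 label ended (limma adjusted p from 0.0897 to 0.191), as did that of HEY1 for control siRNA (0.329). DLL1 passed under both labels in that fit.

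**Figure D1:**
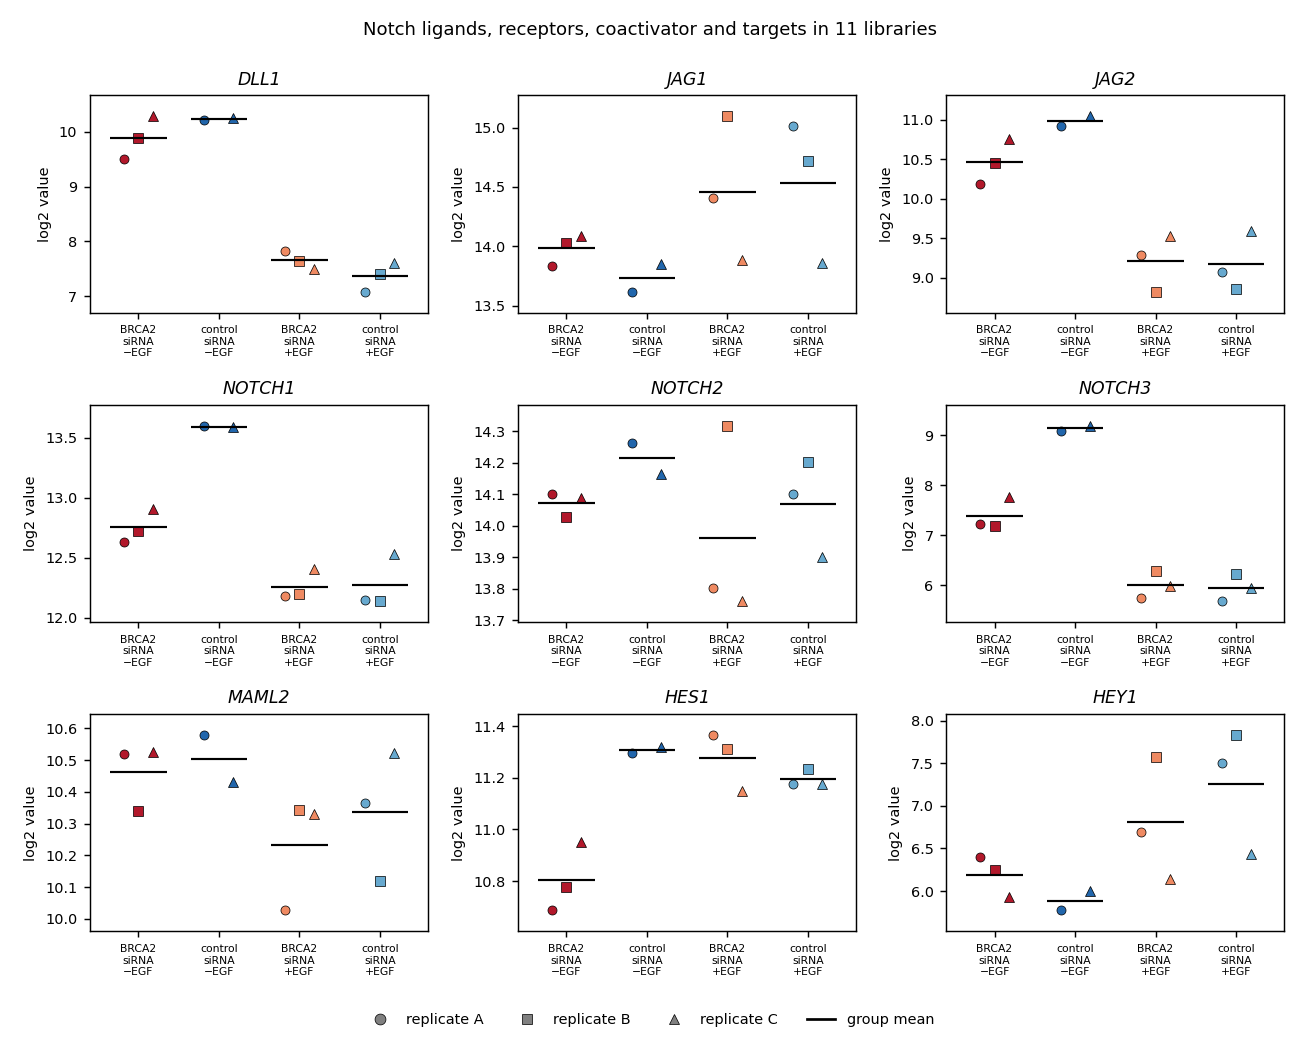
Deposited log2 values (vertical axis, scaled separately for each gene) of the 9 Notch genes in the 11 libraries, by siRNA label and EGF; circles, squares and triangles are replicates A, B and C, and lines are group means. DLL1, JAG2, NOTCH1 and NOTCH3 lay higher in each library without EGF than in each library with EGF, and the 2 control libraries without EGF held the highest NOTCH1 and NOTCH3 values. The share of all tested genes that separated by medium is not given here. The first principal component of all tested genes, with 65.9% of the variance, separated the same libraries.

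Among the ligands, DLL1, a Delta-type ligand, had log2 values of 9.50, 9.89 and 10.28 without EGF in the libraries labelled BRCA2 siRNA, against 7.82, 7.64 and 7.50 with EGF. Under control siRNA it had 10.21 and 10.25 without EGF, against 7.08, 7.41 and 7.60 with EGF. The 5 libraries without EGF lay above the 6 with EGF by more than the whole spread within a group. The log2 difference was 2.23 ± 0.19 for the BRCA2 label (SE; limma adjusted p = 0.000158) and 2.86 ± 0.21 for control siRNA (adjusted p = 9.35e-06). DLL1 overlaps FAM120B, a gene on the opposite strand, and whether the reads were counted by strand is not given in the sources used here. FAM120B was also higher without EGF, by 0.54 ± 0.11 (BRCA2 label) and 0.51 ± 0.12 (control siRNA) on the log2 scale, and its part in the DLL1 difference was not tested.

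JAG2, a Serrate-type ligand, had 10.18, 10.45 and 10.76 without EGF in the libraries labelled BRCA2 siRNA, against 9.28, 8.82 and 9.53 with EGF. With control siRNA the values were 10.92 and 11.04 without EGF, against 9.08, 8.86 and 9.60 with EGF. The groups with and without EGF did not overlap under either label, although replicate B minus C with EGF was -0.71 (BRCA2 label) and -0.74 (control siRNA). The differences were 1.25 ± 0.22 for the BRCA2 label (2.38-fold, limma adjusted p = 0.00297) and 1.81 ± 0.24 for control siRNA (3.50-fold, limma adjusted p = 0.000149).

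JAG1, the other Jagged ligand, did not follow DLL1 and JAG2. Its log2 values were 13.83, 14.03 and 14.09 without EGF in the libraries labelled BRCA2 siRNA, against 14.40, 15.09 and 13.88 with EGF. With control siRNA they were 13.62 and 13.85 without EGF, against 15.02, 14.72 and 13.86 with EGF. The replicate C libraries with EGF had JAG1 values like those without EGF, while A and B with EGF were higher. The differences were -0.47 ± 0.31 (BRCA2 label, limma adjusted p = 0.264) and -0.80 ± 0.34 (control siRNA, limma adjusted p = 0.0720). Within replicates of the control siRNA the difference was -1.40 in A and -0.01 in C. Without both replicate C libraries with EGF, a choice made after these values were seen, JAG1 passed the threshold for the BRCA2 label (-0.76, limma adjusted p = 0.00802) and for control siRNA (-1.13, limma adjusted p = 0.000669). With control siRNA it also passed when a single library with EGF was left out, either control C (limma adjusted p = 0.00629) or the one labelled BRCA2 siRNA B (0.0303) or C (0.0422).

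Of the receptors, NOTCH3 changed most in these libraries. It had log2 values of 7.23, 7.18 and 7.77 without EGF in the libraries labelled BRCA2 siRNA, against 5.75, 6.28 and 5.98 with EGF. Under control siRNA it had 9.08 and 9.19 without EGF, against 5.69, 6.22 and 5.94 with EGF. The 6 libraries with EGF were alike, the 3 labelled BRCA2 siRNA without EGF were intermediate, and the 2 control libraries without EGF were highest, with no overlap between these 3 sets. The withdrawal differences were 1.39 ± 0.20 for the BRCA2 label (limma adjusted p = 0.00132) and 3.18 ± 0.22 for control siRNA (limma adjusted p = 7.26e-06).

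NOTCH1, a receptor known for its part in epithelial differentiation, showed the same order of groups. Its values were 12.63, 12.73 and 12.90 without EGF in the libraries labelled BRCA2 siRNA, against 12.18, 12.19 and 12.41 with EGF. With control siRNA they were 13.60 and 13.59 without EGF, against 12.15, 12.14 and 12.53 with EGF. The withdrawal groups did not overlap under either label. The difference was 0.50 ± 0.12 for the BRCA2 label (1.41-fold, limma adjusted p = 0.0108) and 1.32 ± 0.13 for control siRNA (2.50-fold, limma adjusted p = 2.54e-05). The call for the BRCA2 label ended when the library labelled BRCA2 siRNA with EGF A was left out (adjusted p = 0.0516) or that without EGF C (0.0501). AL592301.1, an antisense transcript that overlaps NOTCH1, lay between 2.89 and 4.57.

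NOTCH2, another receptor of the family, had values of 14.10, 14.03 and 14.09 without EGF in the libraries labelled BRCA2 siRNA, against 13.80, 14.32 and 13.76 with EGF. With control siRNA it had 14.26 and 14.17 without EGF, against 14.10, 14.20 and 13.90 with EGF. The groups overlapped under both labels. The differences were 0.11 (95% interval -0.18 to 0.41) for the BRCA2 label and 0.15 (-0.18 to 0.48) for control siRNA. With quantile normalization the control difference was 0.43 (limma adjusted p = 0.0117). Without the library labelled BRCA2 siRNA with EGF B, the difference for the BRCA2 label was 0.29 (limma adjusted p = 0.0453), and without both B libraries with EGF its adjusted p was 0.0211. NOTCH2 has near-identical NOTCH2NL copies in the genome, and how shared reads were counted is not given in the sources used here.

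MAML2, a Mastermind-like coactivator of the RBPJ complex, varied little. Its values were 10.52, 10.34 and 10.53 without EGF in the libraries labelled BRCA2 siRNA, against 10.03, 10.34 and 10.33 with EGF, and with control siRNA 10.58 and 10.43 without EGF, against 10.37, 10.12 and 10.52 with EGF. The groups overlapped, and the withdrawal differences were 0.23 (95% interval -0.04 to 0.50) for the BRCA2 label and 0.17 (-0.13 to 0.47) for control siRNA.

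HES1, a bHLH repressor and direct target of the pathway, had log2 values of 10.69, 10.78 and 10.95 without EGF in the libraries labelled BRCA2 siRNA, against 11.37, 11.31 and 11.15 with EGF. In the control libraries it had 11.30 and 11.32 without EGF, against 11.17, 11.23 and 11.18 with EGF. The 3 libraries labelled BRCA2 siRNA without EGF were the lowest of the 11. The difference for the BRCA2 label was -0.47 ± 0.09 (1.39-fold lower, limma adjusted p = 0.00376). For control siRNA it was 0.11 ± 0.10 (limma adjusted p = 0.345), in groups that did not overlap, and with quantile normalization 0.34 (limma adjusted p = 0.0129).

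HEY1, another bHLH repressor and target, had 6.40, 6.25 and 5.92 without EGF in the libraries labelled BRCA2 siRNA, against 6.70, 7.58 and 6.14 with EGF. In the control libraries it had 5.77 and 6.00 without EGF, against 7.51, 7.83 and 6.43 with EGF. As for JAG1, the replicate C libraries were the lowest of those with EGF, by 1.44 (BRCA2 label) and 1.40 (control siRNA) relative to B. The difference was -0.62 ± 0.38 for the BRCA2 label (limma adjusted p = 0.245), in overlapping groups. With control siRNA it was -1.37 ± 0.43 (2.59-fold lower, limma adjusted p = 0.0195), with -1.74 within replicate A and -0.43 within replicate C. That call ended without the control library with EGF A (limma adjusted p = 0.0629) or B (0.0607), or without the control library without EGF A (0.108) or C (0.0629). Without both replicate C libraries with EGF, the difference for the BRCA2 label was -0.95 (limma adjusted p = 0.0136). The 2 withdrawal effects on HEY1 differed by 0.76 ± 0.57 (limma adjusted p = 0.474), so HEY1 was not shown to respond differently under the 2 labels.

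Markers of other cell types were among the genes that moved with EGF withdrawal. Of all tested genes, 27.1% passed the threshold in either direction for the BRCA2 label and 50.8% for control siRNA. The control siRNA counts of keratinocyte and basal markers given below lie near that share. Sums are given as the log2 of summed linear values, as a range over libraries. Over 7 fibroblast markers the sum was 10.20 to 11.11 without EGF in the libraries labelled BRCA2 siRNA, against 9.48 to 9.71 with EGF, and 11.45 to 11.50 without EGF with control siRNA, against 9.39 to 9.55 with EGF. Of the 6 tested, 2 rose for the BRCA2 label (among them COL1A1, a collagen chain, by 1.90) and 5 rose for control siRNA (COL1A1 by 3.05), while COL1A2, the partner chain, did not exceed 1.84 in any library. Of 6 markers of keratinocyte differentiation, 5 were tested, and 3 rose under each label (SPRR1B among them, which entered the test only through libraries without EGF, so its difference was fixed by the filter). Of the others TGM1, a transglutaminase of the cornified envelope, rose by 1.64 for the BRCA2 label and by 3.43 for control siRNA. The keratinocyte sum was 9.24 to 9.38 without EGF in the libraries labelled BRCA2 siRNA, against 8.81 to 9.0 with EGF, and 9.92 to 10.07 without EGF with control siRNA, against 8.61 to 8.96 with EGF. Of 4 endothelial markers 2 were tested, KDR and TEK. With control siRNA KDR rose by 2.51 and TEK fell by 1.13, and neither passed for the BRCA2 label. The endothelial sum was 8.16 to 8.77 without EGF in the libraries labelled BRCA2 siRNA, against 7.71 to 8.49 with EGF, and 10.18 to 10.42 without EGF with control siRNA, against 7.63 to 8.65 with EGF, and CDH5 stayed below 0. KDR alone had 10.15 and 10.40 in the control libraries without EGF, so this sum mostly followed that gene. Of 4 leukocyte markers only CD14 was tested. It rose by 0.82 (BRCA2 label) and 2.00 (control siRNA), and CD3E and CD68 stayed below 0. The leukocyte sum was 4.60 to 4.79 without EGF in the libraries labelled BRCA2 siRNA, against 3.96 to 4.43 with EGF, and 5.27 to 5.80 without EGF with control siRNA, against 3.92 to 4.43 with EGF. In the control libraries without EGF, COL1A1 had 10.88 and 10.85, TGM1 9.04 and 9.15, and CD14 5.61 and 5.01. Each was the largest term of its sum there, so the sums do not show shifts of whole lists. Of 7 basal markers 3 rose and 1 fell under each label, and of 4 tested luminal markers 0 rose and 2 fell for the BRCA2 label, while 2 rose and 1 fell for control siRNA. The part of these changes in the Notch genes' differences was not tested, and in bulk RNA fewer cells of a type and less RNA per cell cannot be told apart.

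The BRCA2 label was then set against control siRNA in each medium. Without EGF, NOTCH3, NOTCH1 and HES1 were lower in the libraries labelled BRCA2 siRNA than with control siRNA, and no member was called higher. NOTCH3 was 3.34-fold lower (log2 difference -1.74 ± 0.22, limma adjusted p = 0.00151), NOTCH1 1.79-fold lower (-0.84 ± 0.13, limma adjusted p = 0.00248) and HES1 1.42-fold lower (-0.50 ± 0.10, limma adjusted p = 0.00592). For each of the 3 genes all 3 libraries labelled BRCA2 siRNA lay below both control libraries. The share of all tested genes that separated likewise is not given here, so this describes genes already called. These 3 of 9 stand beside a background of 20.5% of all tested genes past the threshold, 9.36% of them lower. The median difference of the 9 genes was -0.34, that of all tested genes 0.0062. Of the markers, 3 of 6 tested for fibroblasts and 3 of 5 for keratinocyte differentiation were also lower for the BRCA2 label, as were KDR and CD14. SPRR1B, 1 of those keratinocyte markers, passed the filter only through libraries without EGF. IVL (involucrin), another keratinocyte marker, was higher for the BRCA2 label (1.17, limma adjusted p = 0.0299), 0 basal markers were higher and 2 lower, and of the luminal markers KRT18 was higher (0.45) and KRT8 lower (-0.76). The part of these markers in the Notch differences was not tested.

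The ligands did not pass in this comparison. JAG2 differed by -0.52 ± 0.24 (limma adjusted p = 0.152) in groups that did not overlap, DLL1 by -0.34 ± 0.21 (limma adjusted p = 0.280) and JAG1 by 0.25 ± 0.34 (limma adjusted p = 0.643). JAG2 and JAG1 passed when only these 2 groups entered the fit (limma adjusted p = 0.0128 and 0.0495), and JAG2 without both C libraries with EGF (0.0462). NOTCH2 (-0.14 ± 0.15), MAML2 (-0.04 ± 0.14) and HEY1 (0.31 ± 0.43) did not pass. Without either control library the calls of NOTCH3 and NOTCH1 held, and that of HES1 ended, with an adjusted p (limma) of 0.0657 without A and 0.0544 without C. With replicates B and C alone the 3 calls ended (limma adjusted p from 0.286 to 0.401), at values of -1.71 for NOTCH3, -0.77 for NOTCH1 and -0.46 for HES1. The background count itself rests on single libraries: from 3687 genes it changed to 515 without control A, 1085 without control C, 1662 without BRCA2 label A and 2071 without BRCA2 label B, all without EGF.

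With EGF, 0 of the 9 genes passed between the BRCA2 label and control siRNA in limma, and 0 had an unadjusted p below 0.05. The background was 0.00557% of tested genes, which is 1 gene of 17945, with 508 at an unadjusted p below 0.05. That gene, MTATP8P1, a pseudogene copy of a mitochondrial gene, named after its value was seen, was lower for the BRCA2 label (-1.39). The differences ran from -0.45 ± 0.38 for HEY1 to 0.29 ± 0.19 for DLL1. For NOTCH3 it was 0.05 (95% interval -0.38 to 0.49), for NOTCH1 -0.01 (-0.27 to 0.24) and for HES1 0.08 (-0.11 to 0.27). The fit behind these values did not use the replicate letters. Over all tested genes, the B libraries with EGF deviated alike from their group means (r = 0.695), as did the C libraries (r = 0.700). Such shared differences can widen the intervals of an unpaired fit.

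Whether EGF withdrawal acted differently under the 2 labels was tested as an interaction, the withdrawal difference for the BRCA2 label minus that for control siRNA. The interaction was negative for NOTCH3 (-1.79 ± 0.30, limma adjusted p = 0.0235), NOTCH1 (-0.83 ± 0.17, limma adjusted p = 0.0332) and HES1 (-0.58 ± 0.13, limma adjusted p = 0.0377). For both receptors the rise without EGF was smaller for the BRCA2 label. HES1 fell for that label while its control difference did not pass. The background of this test was 3.32% of tested genes, 1.93% negative. DLL1 (-0.63 ± 0.28, limma adjusted p = 0.224) and JAG2 (-0.55 ± 0.33, limma adjusted p = 0.347) did not pass, so their responses were not shown to differ. The median of the 9 genes was -0.55, against 0.0192 for all tested genes.

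These interaction calls depend on single libraries, though the values moved little. The NOTCH3 value stayed between -1.85 and -1.66 in the fits that ended its call. These were the fits without, in turn, the library labelled BRCA2 siRNA with EGF C (limma adjusted p = 0.0614), those without EGF A (0.0585) and B (0.0705), the control with EGF A (0.0768), and the controls without EGF A (0.117) and C (0.142). The NOTCH1 call ended without the same 6 libraries (limma adjusted p from 0.0790 to 0.163) and without the library labelled BRCA2 siRNA with EGF A (0.0559). The HES1 call ended without those 7 and without the library labelled BRCA2 siRNA with EGF B (limma adjusted p from 0.0563 to 0.168), with no filter on low values (0.0744) and with a term for replicate A (0.0542). With replicates B and C alone the 3 calls ended (limma adjusted p from 0.908 to 0.935), at -1.76 for NOTCH3, -0.74 for NOTCH1 and -0.48 for HES1. The background fell with them, from 595 genes to 157 without the library labelled BRCA2 siRNA with EGF A, to 62 and 1 without those without EGF A and B, and to 0 without control with EGF A, either control without EGF, or the library labelled BRCA2 siRNA with EGF C. It rose to 1041 without the library labelled BRCA2 siRNA without EGF C and to 1606 without the control with EGF C.

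The marker genes TGM1, KDR, KRT8 and DCN also had a negative interaction past the threshold (-1.79, -2.07, -0.76 and -1.08), as did SPRR1B (-2.34), subject to the filter as described above, and their part in the Notch values was not tested.

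**Figure D2:**
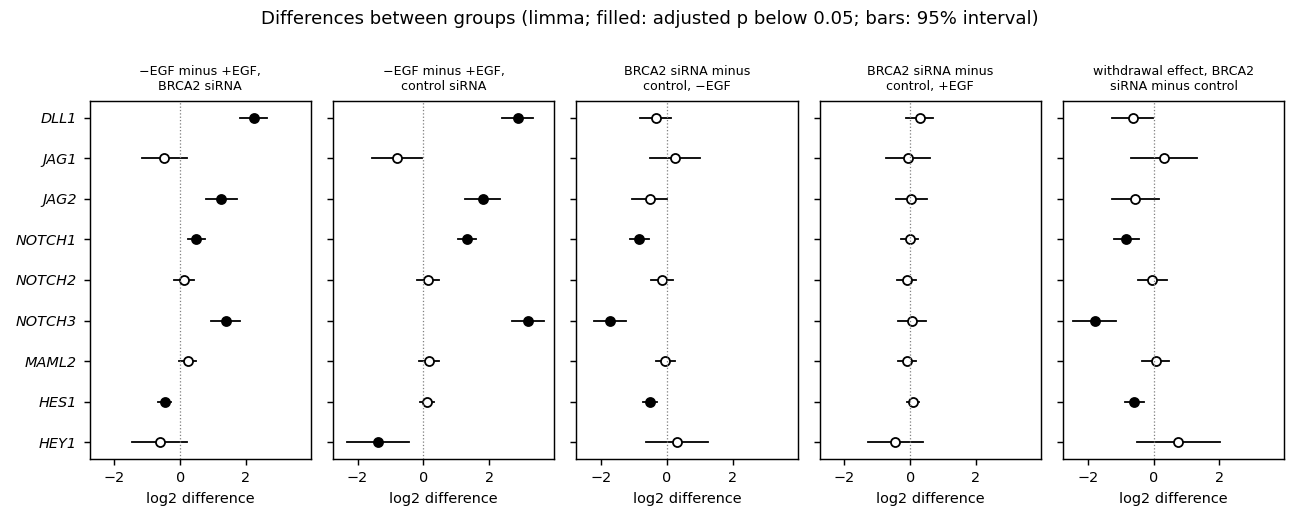
Log2 differences (horizontal axis) of the 9 Notch genes in the 5 comparisons, with 95% intervals from limma; filled points had an adjusted p below 0.05. From left to right the panels give EGF withdrawal for the BRCA2 label and for control siRNA, the BRCA2 label against control without and with EGF, and the interaction; NOTCH1, NOTCH3 and HES1 are filled on the negative side in the interaction, and no point is filled with EGF.

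The promoter window of HES1 is shown because HES1 is known as a direct target of RBPJ, which binds a TGGGAA core. The 250 bases before its start in the RefSeq table (GRCh38.p14, chr3:194135898-194136147, plus strand) are printed 5′ to 3′, with TGGGAA in capitals. The window of NOTCH3, the receptor with the largest difference (chr19:15200996-15201245, minus strand), is printed for comparison and held no such core on either strand.
HES1: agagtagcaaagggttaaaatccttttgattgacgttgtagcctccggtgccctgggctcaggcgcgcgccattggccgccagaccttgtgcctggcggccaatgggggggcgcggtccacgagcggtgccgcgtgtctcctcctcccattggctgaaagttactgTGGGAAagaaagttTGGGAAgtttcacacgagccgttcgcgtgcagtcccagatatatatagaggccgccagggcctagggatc
NOTCH3: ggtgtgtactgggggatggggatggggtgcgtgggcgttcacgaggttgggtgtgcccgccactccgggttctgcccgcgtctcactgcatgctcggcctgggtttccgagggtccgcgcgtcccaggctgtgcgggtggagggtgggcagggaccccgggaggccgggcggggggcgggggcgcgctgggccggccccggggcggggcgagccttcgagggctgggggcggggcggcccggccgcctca

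The HES1 cores began at -84 and -70 from the start, both on the plus strand with 8 bases between them. The promoters of DLL1 and HEY1 were not analysed here. Of the 7 members matched in the table, JAG1, JAG2, NOTCH1, NOTCH2, NOTCH3 and MAML2 had 0 matches to TGGGAA on either strand. Over all 35116 promoters in the table, 20.8% held at least 1 match and 2.90% at least 2. The N-box letters CACNAG, bound by HES repressors, occurred 3 times in the HES1 window (first bases at -165, -132 and -58), 2 times in that of MAML2 and 1 time in that of NOTCH3, and in 32.0% of all promoters. HES1 is known to repress its own promoter through such boxes. A match describes letters and not a bound site.

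The other genes of the pathway were taken from a list of 57, of which 55 were in the table and 51 were tested. DLL4, NOTCH4 and TLE2 passed the filter only through libraries of 1 medium, where they were high, and are left out of the counts, which leaves 48. On EGF withdrawal 11 rose and 5 fell for the BRCA2 label, and 18 rose and 10 fell for control siRNA, beside the backgrounds given above. In the libraries labelled BRCA2 siRNA without EGF, against control without EGF, 4 were higher and 5 lower, beside 11.2% and 9.36% of all tested genes, so these counts lie near the background. With EGF 0 of the 48 passed between the labels in limma, and MFNG had an unadjusted p below 0.05. In the interaction 1 of the 48 passed, DNER, beside 3.32% of all tested genes, so this count lies near the background. Of the calls on withdrawal for the BRCA2 label, 5 rises and 2 falls held in each of the 11 fits that left out a library, and of those for control siRNA 11 rises and 6 falls did. Between the labels without EGF the higher level of DNER and the lower level of APH1B, a subunit of gamma-secretase, did.

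Of the ligands and receptors outside the 9 genes, DLL4, a Delta-type ligand, had 2.99, 2.92 and 2.73 without EGF in the libraries labelled BRCA2 siRNA, against 3.88, 3.50 and 3.73 with EGF. With control siRNA it had 2.98 and 3.14 without EGF, against 3.25, 3.14 and 3.77 with EGF. It entered the test only through libraries with EGF, so no test of its difference is given. DLL3 did not pass (-0.15 and -0.19). NOTCH4, the remaining receptor, had 2.73, 3.25 and 2.93 without EGF in the libraries labelled BRCA2 siRNA, against 3.05, 3.06 and 3.29 with EGF, and 3.87 and 3.74 without EGF with control siRNA, against 3.11, 3.02 and 3.06 with EGF. The 2 control libraries without EGF were the highest, and NOTCH4 entered the test through these 2 alone, so no test of its difference is given.

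DNER, a non-canonical ligand best known in neurons, ran the other way. It had 12.23, 12.05 and 12.10 without EGF in the libraries labelled BRCA2 siRNA, against 12.56, 12.60 and 12.38 with EGF. With control siRNA it had 11.63 and 11.54 without EGF, against 12.54, 12.59 and 12.41 with EGF. The groups did not overlap, and the 2 control libraries without EGF were the lowest. It fell by 0.39 for the BRCA2 label (limma adjusted p = 0.00791) and by 0.93 for control siRNA (limma adjusted p = 3.09e-05), with an interaction of 0.54 ± 0.13 (limma adjusted p = 0.0450). The interaction call ended with no filter (0.0744) and without any of 8 single libraries (limma adjusted p from 0.0649 to 0.181), namely the libraries labelled BRCA2 siRNA with EGF A and C and without EGF A and B, the controls with EGF A and B, and the controls without EGF A and C.

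**Figure D3:**
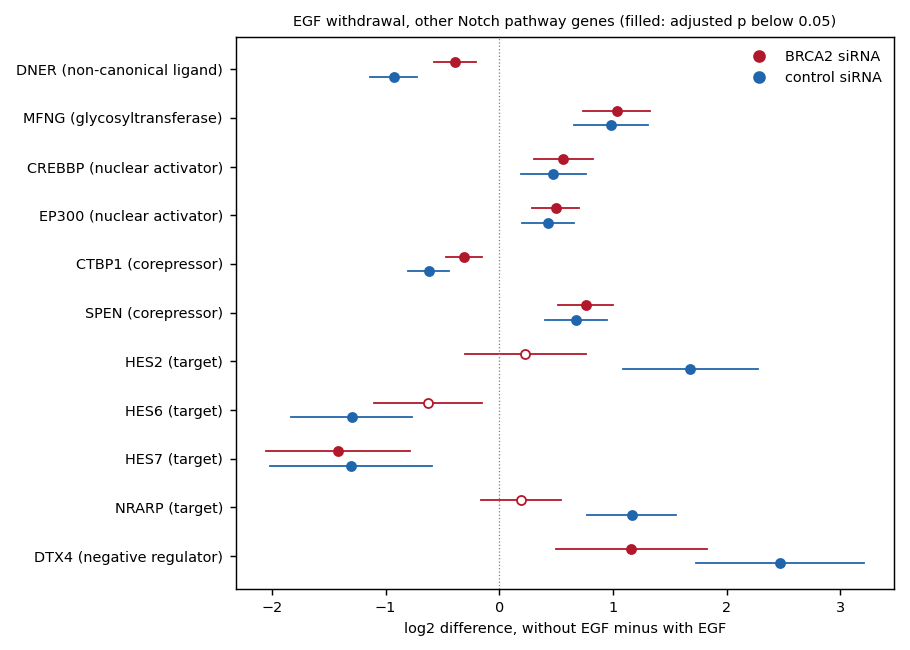
Log2 differences (horizontal axis, without EGF minus with EGF) of other Notch pathway genes named by the smallest p values or as family members, with 95% intervals from limma, for the BRCA2 label (red) and control siRNA (blue); filled points had an adjusted p below 0.05. MFNG, SPEN, EP300, CREBBP and DTX4 lie to the right for both labels, while HES2, HES6 and NRARP are filled for control siRNA and open for the BRCA2 label.

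The counts by role stand beside 27.1% of all tested genes past the threshold for the BRCA2 label and 50.8% for control siRNA. With so few genes per role they describe these genes and not an excess over that background. Of the 5 tested glycosyltransferases, which modify the receptors' extracellular part, 2 rose under each label. MFNG rose by 1.03 (2.05-fold, limma adjusted p = 0.000859) for the BRCA2 label and by 0.98 (1.98-fold, limma adjusted p = 0.000321) for control siRNA. LFNG, named after its values were seen, rose by 1.64 for the BRCA2 label (limma adjusted p = 0.0112; 0.0509 without that label's library without EGF C) and by 2.25 for control siRNA (limma adjusted p = 0.00136). Of the 4 ligand ubiquitin ligases, which drive ligand endocytosis, NEURL1B rose (0.55) and MIB1 fell (-0.31) for the BRCA2 label, and MIB2 (0.48), NEURL1 (0.84) and NEURL1B (1.08) rose for control siRNA. Of these 5 calls, that of NEURL1B for control siRNA held in each fit that left out a library. Of 3 proteases that process the receptors, 0 passed for the BRCA2 label (0 at an unadjusted p below 0.05, limma), while ADAM10 rose (0.21) and FURIN fell (-0.38) for control siRNA. The ADAM10 call ended without the control library with EGF A (limma adjusted p = 0.0688) or those without EGF A (0.110) or C (0.106). Of the 6 gamma-secretase genes 0 passed for the BRCA2 label (APH1A at an unadjusted p below 0.05, limma), and APH1B rose (0.66) and PSENEN fell (-0.45) for control siRNA, and the PSENEN call ended when any control library but C with EGF was left out (limma adjusted p from 0.0545 to 0.132). APH1B, a gamma-secretase subunit, was lower without EGF for the BRCA2 label than for control (-0.71, limma adjusted p = 0.00406).

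Of 8 nuclear activators, 4 rose and 1 fell for the BRCA2 label, and 2 rose and 2 fell for control siRNA. The background was 27.1% of all tested genes for the BRCA2 label and 50.8% for control siRNA. The control siRNA count of the nuclear activators lies near it. The acetyltransferases EP300 (0.50 and 0.43) and CREBBP (0.57 and 0.48) rose for the BRCA2 label and for control siRNA, the CREBBP call for control siRNA ending without the control without EGF A (limma adjusted p = 0.10). KAT2A (0.68) and MAML1 (0.31) also rose for the BRCA2 label, and SNW1 fell for both labels (-0.39 and -0.46); these 4 calls ended without certain single libraries. RBPJ itself had a difference of -0.14 for the BRCA2 label (limma adjusted p = 0.285) and fell by 0.43 for control siRNA (limma adjusted p = 0.00484; 0.167 with quantile normalization). Without EGF it was higher by 0.39 for the BRCA2 label than for control (limma adjusted p = 0.0224), a call that ended with quantile normalization (0.130), without either control library without EGF (A 0.112, C 0.144) and without the libraries labelled BRCA2 siRNA without EGF A (0.0868) or B (0.0679). Of 9 corepressors, 2 rose and 1 fell for the BRCA2 label, and 5 rose and 2 fell for control siRNA, with TLE2, which entered the test only through libraries without EGF, among the 5. SPEN rose by 0.76 and 0.68, and CTBP1 fell by 0.31 and 0.62, for the BRCA2 label and for control siRNA. The CTBP1 call for the BRCA2 label ended without that label's library without EGF B (limma adjusted p = 0.0541). Of 6 tested negative regulators, 2 rose for the BRCA2 label, and 3 rose and 1 fell for control siRNA. DTX4, a Deltex-family gene, rose by 1.16 (2.24-fold) for the BRCA2 label and by 2.47 (5.54-fold) for control siRNA. Its call for the BRCA2 label ended without that label's libraries with EGF A (limma adjusted p = 0.0685) or B (0.0518) or without EGF C (0.0745).

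The HES and HEY genes and NRARP, an ankyrin-repeat feedback inhibitor, did not move as a block. Of the 8 such genes beside HES1 and HEY1, 5 were tested. For the BRCA2 label 0 rose and 1 fell on withdrawal, beside 27.1% of all tested genes past the threshold. For control siRNA 2 rose and 2 fell, beside 50.8%. NRARP had 4.23, 4.28 and 4.27 without EGF in the libraries labelled BRCA2 siRNA, against 4.14, 4.03 and 4.04 with EGF, and 5.11 and 5.26 without EGF with control siRNA, against 3.76, 3.95 and 4.35 with EGF. The 2 control libraries without EGF stood above the other 9. Its withdrawal difference was 0.19 for the BRCA2 label (limma adjusted p = 0.395) and 1.17 for control siRNA (2.25-fold, limma adjusted p = 0.000335), and the interaction, -0.98 ± 0.24, had an adjusted p of 0.0509 in limma. Without EGF it was lower for the BRCA2 label than for control (-0.93, limma adjusted p = 0.00611), a call that ended without control A (0.0506) or C (0.0591).

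HES2 had 9.58, 9.83 and 10.18 without EGF in the libraries labelled BRCA2 siRNA, against 9.71, 9.22 and 9.97 with EGF, and 11.04 and 11.20 without EGF with control siRNA, against 9.32, 9.05 and 9.94 with EGF. The 2 control libraries without EGF were again above the other 9. The difference was 0.23 for the BRCA2 label (limma adjusted p = 0.501) and 1.68 for control siRNA (3.21-fold, limma adjusted p = 0.000455), with an interaction of -1.45 ± 0.36 (limma adjusted p = 0.0532). Without EGF it was lower for the BRCA2 label than for control (-1.25, limma adjusted p = 0.00964), a call that ended without control A (0.0728) or C (0.0762).

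HES6, known in other tissues to counter HES1, fell by 1.30 for control siRNA (limma adjusted p = 0.00117) and had a difference of -0.63 for the BRCA2 label (limma adjusted p = 0.0515). HES7, a segmentation-clock repressor, fell by 1.42 for the BRCA2 label (limma adjusted p = 0.00598) and by 1.30 for control siRNA (limma adjusted p = 0.00636). The control call of HES7 ended without the control library without EGF C (limma adjusted p = 0.0513). HES4 did not pass (0.06 and 0.34 for the BRCA2 label and for control siRNA). HES5 and HEYL stayed below 0 in each library and HEY2 between 2.00 and 2.46, and none of these 3 was tested.

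**Figure D4:**
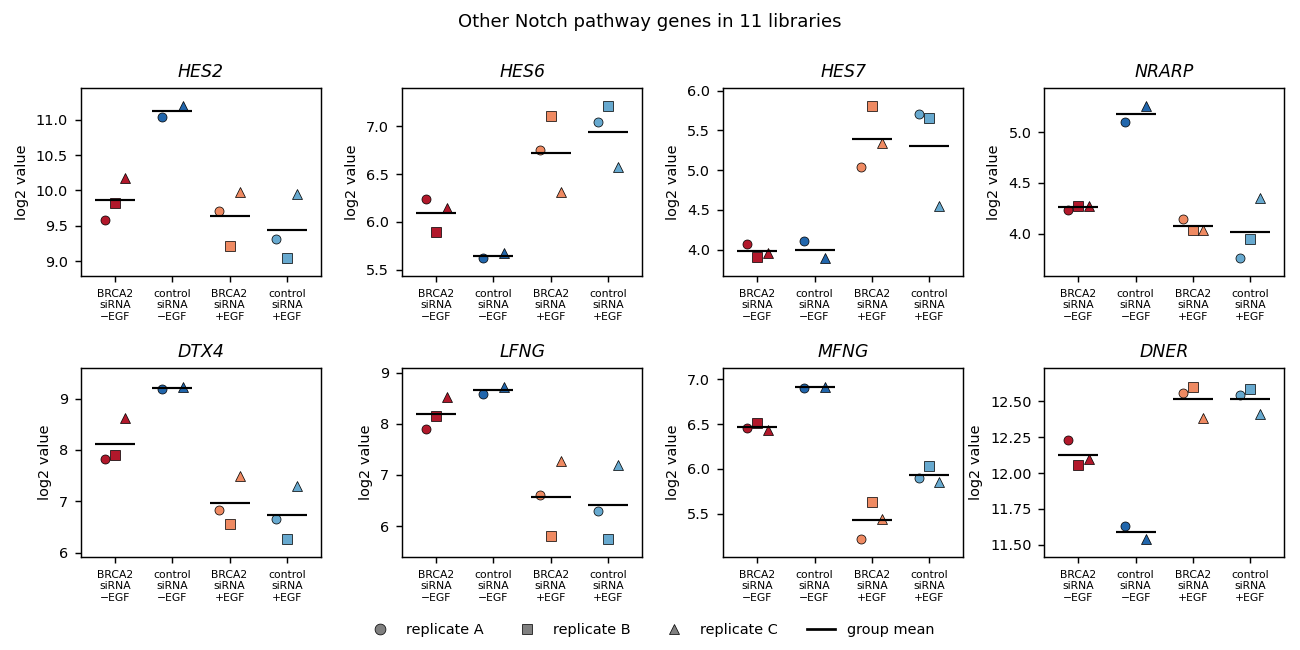
Deposited log2 values (vertical axis, scaled separately for each gene) of 8 other Notch pathway genes in the 11 libraries, by siRNA label and EGF; circles, squares and triangles are replicates A, B and C, and lines are group means. NRARP and HES2 were highest in the 2 control libraries without EGF, and DNER was lowest there.

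Correlations between the 9 genes over the 11 libraries are given as a description of libraries that share groups. NOTCH1 and NOTCH3 had a Pearson r of 0.961, DLL1 and JAG2 0.951, and JAG1 and HEY1 0.914. JAG2 was also close to NOTCH1 (0.926) and NOTCH3 (0.896), and DLL1 to NOTCH3 (0.903) and NOTCH1 (0.856). These ligands and receptors thus did not form separate sets. JAG2 and HEY1 ran in opposite directions (r = -0.876). Of all tested genes with a symbol, the 3 most like NOTCH3 were AKAP13 (0.997), DSP (0.996) and JUP (0.995), and those most like NOTCH1 were RAB3D (0.995), FLVCR2 (0.994) and MBD5 (0.993). DSP and JUP encode desmosome proteins. DLL1 was most like FAP (0.994), COL16A1 (0.993) and LINC01355 (0.991), of which FAP is a surface protease and COL16A1 a collagen. JAG2 was most like ERBB2 (0.995), an EGF receptor family member, CFAP44 (0.994) and S1PR5 (0.994). JAG1 was most like MTMR9 (0.990), HBEGF (0.988), an EGF receptor ligand, and PTGS2 (0.982). HEY1 was most like C11orf68, UPP1 and SNHG12 (0.989 each). HES1 (CAMLG, 0.967), NOTCH2 (TAF1, 0.964) and MAML2 (PER3, 0.904) had weaker best matches.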

How the data were processed

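The authors deposited 1 table of log2 values for 40460 Ensembl genes in 11 libraries. Per the submitters' processing notes, hg19, TopHat2 2.0.11, DESeq2 and limma were used, with no role or order given; which read counter, annotation, strand setting and log2 transform were used is not given in the sources used here. Per the labels' protocols, total RNA was depleted of ribosomal RNA and made into Script-seq v2 libraries. In each gene the mean of the 4 replicate A libraries equalled that of the other 7 to within 7.2e-09, so the deposited values had been centred for A, without regard to the groups, which the main fit does not count. A RefSeq gene table gave symbols to 37585 genes (92.9%).

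The filter required a linear value of 10 or more in 2 or more libraries and kept 17945 genes, all 9 members among them. A model of the 4 groups was fitted to the 11 libraries in limma 3.58.1 (R 4.3.3) with a mean-variance trend. Tests were two-sided, adjusted after Benjamini and Hochberg over all tested genes within a comparison, with a threshold of 0.05, and errors are moderated standard errors. The labels call the replicates biological but do not say that they were separate cultures, so p-values measure the spread between these samples. The comparisons share libraries. The code was tested on simulated data.

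The members and gene lists were chosen with earlier results of these data known. All 9 members are named, and beside them up to 6 other pathway genes with the smallest p per comparison, any other canonical ligand, receptor or HES/HEY gene, and the 3 genes most like each member. Alternatives were no filter, a minimum of 100, quantile normalization, the compared groups alone, a replicate block, a term for replicate A, replicates B and C alone, and leaving out each library. Leaving out both B or both C libraries with EGF was added after the data were seen. No pseudocount was needed. Overlapping genes were taken from GENCODE 29. DLK1, DTX1, LORICRIN and PECAM1 were not analysed here, and 1 pathway gene that the rule would name is not reported here.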

Additional observations from a re-analysis of the deposited data

Results flagged for a closer look

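For 4 genes the effect of EGF withdrawal differed between the libraries labelled BRCA2 siRNA and the control siRNA libraries by the interaction test in limma. On the log2 scale the effect for the BRCA2 label minus that for control siRNA was -1.79 for NOTCH3, -0.83 for NOTCH1, -0.58 for HES1 and 0.54 for DNER. Each had an adjusted p below 0.05 with all 11 libraries, and each call ended when certain single libraries were left out, as given above. Of all tested genes 3.32% passed this test, beside 3 of the 9 members and 1 of the 48 other pathway genes.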

How the results depend on the processing

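Over the settings run, 4 to 7 members passed on EGF withdrawal with control siRNA and 0 between the labels with EGF. With only replicates B and C, 1 member passed on withdrawal for the BRCA2 label (5 with all libraries), 0 between the labels without EGF (3) and 0 in the interaction (3). With only the compared groups, 5 passed between the labels without EGF, and no interaction could be fitted. Leaving out each library in turn gave 0 to 3 members in the interaction. Over all genes, replicates B and C alone gave 1975 calls on withdrawal with control siRNA (9121), 46 for the BRCA2 label (4871), and 0 between the labels in either medium and in the interaction. The compared groups alone gave 6780 between the labels without EGF (3687), and leaving out both C libraries with EGF gave 989 in the interaction (595). Leaving out single libraries gave 6070 to 10023 calls on withdrawal with control siRNA, 2228 to 6196 for the BRCA2 label, 515 to 4766 between the labels without EGF, and 0 to 1606 in the interaction. With the replicate block the members' counts were 5 on withdrawal under either label, 3 and 0 between the labels without and with EGF, and 3 in the interaction; over all genes the interaction had 930 calls. Of 15 same-letter pairs of libraries, 2 had deviations correlated above 0.1 (range -0.37 to 0.70). These were the B pair with EGF (0.695) and the C pair with EGF (0.700). The pairs of A libraries could not show pairing, since the deposited values had been centred for A, which removes a shared A effect. The check therefore does not decide whether the letters pair the samples. The main fit did not use the letters, and the block is given in this section alone. The minimum of 100 moved the median of the genes tested to -0.16 on withdrawal with control siRNA, with 2461 genes higher and 4384 lower (4439 and 4682 with the main filter). The direction turned only for differences that did not pass. With replicates B and C alone these were JAG1 (0.199), JAG2 (-0.0507) and MAML2 (0.0156) between the labels with EGF, MAML2 without EGF (0.0026), and MAML2 in the interaction (-0.0129, and -0.0279 with quantile normalization). Without both C libraries with EGF it was NOTCH1 between the labels with EGF (0.0420), and without both B libraries NOTCH2 in the interaction (0.0772). Leaving out single libraries, the differences between the labels ran from -0.12 to 0.0316 for MAML2 without EGF, and with EGF from -0.41 to 0.22 for JAG1, -0.12 to 0.25 for JAG2, -0.0859 to 0.115 for NOTCH1, -0.0834 to 0.190 for NOTCH3 and -0.21 to 0.0005 for MAML2; the interactions ran from -0.13 to 0.15 for NOTCH2 and -0.0431 to 0.168 for MAML2. The cause of these changes was not tested. The depth is unknown, so no limit of detection is given.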
